A study of Mus musculus with 2 samples.

Results

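The genes described here are 10 genes of B cell precursors and of antigen receptor recombination: Vpreb1, Igll1, Rag1, Rag2, Dntt, Ebf1, Pax5, Blnk, Cd79a and Il7r. Their probe sets were taken where the platform annotation named 1 of these genes and no other, which gave 19 of the 45037 probe sets in the table and 10 of 18193 named genes. Expression was measured on 2 Affymetrix arrays. One array held total RNA of mouse hematopoietic stem cells (HSC, the bone marrow cells from which all blood lineages arise) labelled Sirt6 knockout, and the other held RNA of wild-type HSC, with both groups aged 3 months. The sort, the number of mice and the kind of Sirt6 disruption were not given in the sources used here.

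B cells arise from HSC through lymphoid-primed progenitors, which begin to transcribe some lymphoid genes before they are committed to a lineage. In B cell precursors, Rag1 and Rag2 together form the recombinase that cuts immunoglobulin gene segments, and Dntt (terminal deoxynucleotidyl transferase) adds nucleotides at the joints. A rearranged heavy chain first pairs with the surrogate light chain, made of the Vpreb and Igll1 (lambda 5) proteins, and the resulting pre-B cell receptor signals through Cd79a and the adaptor Blnk. The factors Ebf1 and Pax5 establish the B cell programme, and the interleukin-7 receptor chain Il7r carries a survival signal to lymphoid precursors.

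The values are MAS5 signals, on a linear scale in arbitrary units, 1 per probe set and array. The arrays had median signals of 60.7 (knockout label) and 60.8 (wild type). Signals under 60.5 were treated as too dim to order. This floor is the midpoint of the probe sets ranked by their mean log2 signal, and a gene was called measured if either array exceeded it. A dimmer signal was replaced by the floor, so that a ratio to it is a minimum, marked "at least". With 1 array per genotype there is no replicate check, and no test was possible. The only error that can be given is technical: over 4632 genes with 2 or more probe sets bright enough on each array, the log2 ratio differed between probe sets of a gene with an SD of 0.22. The targeted gene does not check the labels: Sirt6 read 174 with the knockout label and 124 in wild type, and where its probe set lies relative to the disrupted part was not given in the sources used here. "Higher" and "lower" below mean higher or lower on the array labelled knockout, and every direction rests on that label.

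The promoters shown are those of Vpreb1, Igll1, Rag1, Blnk, Cd79a, Il7r and Dntt. The first 4 had the largest ratios after the floor among the members, as described next. After the floor the ratios of Cd79a and Il7r were nearly equal, but that of Cd79a is a minimum. Without the floor its signals differed 2.29-fold, more than the 1.82-fold of Blnk. Each is the 250 bases before the gene's start in RefSeq (GRCm38.p6), printed 5′ to 3′ on the gene's own strand. The capitals mark CAGGTG or its reverse complement CACCTG, the E-box sequence that E proteins such as E2A (Tcf3) prefer. The first 5 promoters hold the sequence, and those of Il7r and Dntt do not. The promoters of Pax5, Rag2 and Ebf1, which are not printed, do not hold it either. The sequence was looked at after the values were known.
Vpreb1, chr16:16869256-16869505 (- strand): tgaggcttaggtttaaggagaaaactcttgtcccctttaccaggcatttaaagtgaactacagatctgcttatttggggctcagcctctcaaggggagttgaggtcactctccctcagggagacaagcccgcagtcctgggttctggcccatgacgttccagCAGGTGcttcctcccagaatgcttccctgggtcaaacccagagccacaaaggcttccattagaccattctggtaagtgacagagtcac
Igll1, chr16:16863986-16864235 (- strand): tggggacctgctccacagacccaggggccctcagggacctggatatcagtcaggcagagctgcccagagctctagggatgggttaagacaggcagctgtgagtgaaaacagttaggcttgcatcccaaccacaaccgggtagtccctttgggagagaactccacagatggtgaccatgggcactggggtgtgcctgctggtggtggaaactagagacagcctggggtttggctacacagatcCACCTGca
Rag1, chr2:101649533-101649782 (- strand): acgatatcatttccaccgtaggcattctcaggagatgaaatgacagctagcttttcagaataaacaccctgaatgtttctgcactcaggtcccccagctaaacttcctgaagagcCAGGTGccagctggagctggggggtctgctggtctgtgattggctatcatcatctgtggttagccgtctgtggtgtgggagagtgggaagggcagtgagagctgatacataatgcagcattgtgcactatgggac
Blnk, chr19:40994222-40994471 (- strand): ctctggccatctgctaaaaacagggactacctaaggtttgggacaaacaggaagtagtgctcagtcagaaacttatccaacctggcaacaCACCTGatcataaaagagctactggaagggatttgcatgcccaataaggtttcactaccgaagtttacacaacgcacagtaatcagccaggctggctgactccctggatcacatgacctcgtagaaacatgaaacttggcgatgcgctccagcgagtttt
Cd79a, chr7:24897247-24897496 (+ strand): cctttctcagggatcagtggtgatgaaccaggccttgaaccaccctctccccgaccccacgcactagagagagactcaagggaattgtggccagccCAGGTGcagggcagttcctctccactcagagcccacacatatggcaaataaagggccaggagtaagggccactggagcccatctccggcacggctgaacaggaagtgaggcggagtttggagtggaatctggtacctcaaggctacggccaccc
Il7r, chr15:9529877-9530126 (- strand): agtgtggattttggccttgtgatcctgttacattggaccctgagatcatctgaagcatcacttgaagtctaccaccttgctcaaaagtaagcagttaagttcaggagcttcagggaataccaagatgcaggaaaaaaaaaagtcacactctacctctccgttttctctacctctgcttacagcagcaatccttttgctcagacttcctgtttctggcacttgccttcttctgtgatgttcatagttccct
Dntt, chr19:41029025-41029274 (+ strand): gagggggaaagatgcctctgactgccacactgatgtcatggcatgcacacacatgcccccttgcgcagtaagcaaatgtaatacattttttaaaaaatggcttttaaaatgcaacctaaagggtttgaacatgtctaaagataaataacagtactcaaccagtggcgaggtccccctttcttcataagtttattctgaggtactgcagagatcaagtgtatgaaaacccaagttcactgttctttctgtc

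The surrogate light chain genes had the largest ratios among the members after the floor, both toward higher signal. The Rag1 ratio given below is a minimum, and its signals differed 3.03-fold, so it cannot be ranked against them. Vpreb1, which encodes the variable-like part of the surrogate light chain, read 433 with the knockout label and 127 in wild type (probe set 1449869_at). The ratio was 3.42-fold, or 1.78 on the log2 scale, which ranked 3 from the high end among the 11547 measured genes and 12 by size in either direction. Igll1, which encodes the constant-like part, read 296 against 96.2, a ratio of 3.07-fold (log2 1.62) with rank 6 from the high end and 17 by size (probe set 1420176_x_at). Both of these probe sets were above the floor on both arrays. The second Igll1 probe set (1420177_at) was under the floor on both arrays, with signals of 20.1 and 36.95 in the opposite order, so the Igll1 difference rests on the single _x_at probe set, a type that can match related transcripts. A further probe set, 1422416_s_at, names Vpreb1 together with its near-identical copy Vpreb2 and is not counted among the members. It read 112 against 72.2, 1.55-fold higher. Vpreb3, a related gene that is not a member, read 186 against 188 (log2 -0.02).

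The pre-B cell receptor components Blnk and Cd79a were also higher, by smaller amounts. Blnk, the adaptor that links the receptor's kinase to downstream enzymes, read 171 against 93.8 on its single probe set, 1451780_at. This was 1.82-fold higher (log2 0.87). Cd79a, the signalling chain of the receptor, read 87.7 against 38.4 (1418830_at). Its wild-type signal was under the floor, so the ratio was at least 1.45-fold, short of 1.5-fold by this bound. Taken without the floor the 2 signals differed 2.29-fold.

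Of the recombination genes, Rag1 was higher, Dntt was slightly lower and Rag2 was too dim to order. Rag1 read 109.5 with the knockout label and 36.1 in wild type, where it was under the floor (1450680_at). It was at least 1.81-fold higher, and the signals themselves differed 3.03-fold. Rag2, the other subunit of the same recombinase, was under the floor on both arrays, with signals of 24.7 and 22.0 (1418065_at). Dntt was far above the floor on both arrays, and its 3 probe sets were all slightly lower. They read 1916 against 2091 (1449757_x_at), 1251 against 1700 (1450545_a_at) and 527 against 612 (1420166_at). The log2 ratios were -0.13, -0.44 and -0.22, all within 1.5-fold. Dntt was the 1 measured member with a lower signal on the array labelled knockout.

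The transcription factors were dim. All 5 probe sets of Ebf1 were under the floor on both arrays, with signals from 22.0 to 49.1 on the array labelled knockout and from 18.3 to 50.7 in wild type. They had no common direction: 3 read higher and 2 lower on the array labelled knockout. Pax5 read 81.2 against 60.8 (1421765_at) and 64.2 against 60.7 (1454401_at), log2 ratios of 0.42 and 0.08 with the wild-type signals at the floor. A signal at or under the floor does not show that a transcript is absent. Il7r read 109 against 75.2 on its brighter probe set (1448575_at), 1.45-fold higher. Its other probe set (1448576_at) was under the floor on both arrays, with 19.5 and 22.3.

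**Figure D1:**
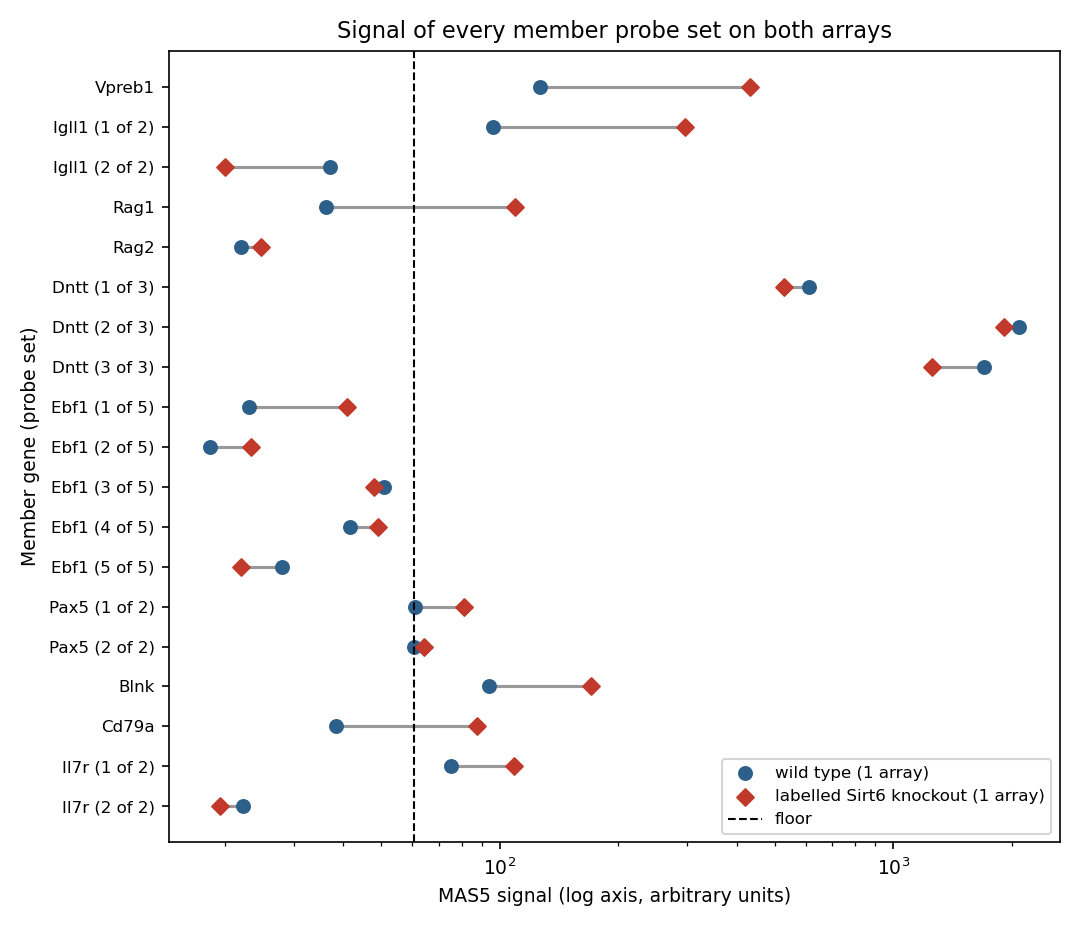
MAS5 signal (x axis, log scale, arbitrary units) of each of the 19 member probe sets (y axis, grouped by gene), with blue circles for the wild-type array and red diamonds for the array labelled Sirt6 knockout. The dashed line is the floor of 60.5. Vpreb1, the first Igll1 probe set, Rag1, Blnk and Cd79a show the widest gaps to the right, the Dntt pairs sit far above the floor and close together, and all Ebf1 pairs lie under it.

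In all, 11 of the 19 member probe sets were measured, 9 of them on both arrays, and 8 of 10 member genes were measured through their brightest probe set. Of these 8 genes, 4 were at least 1.5-fold higher (Vpreb1, Igll1, Rag1 and Blnk), 0 were at least 1.5-fold lower and 4 lay between. The same sizes were passed by 1.71% of the 11547 measured genes upward and by 2.63% downward. The median log2 ratio was 0.70 for the 8 members and 0.0023 for all measured genes. The members were chosen with earlier results of these data known, so these counts and medians are descriptions. Rag1 and Cd79a were measured only through the array labelled knockout, and a gene measured in this way can only come out higher. Among the 6 members above the floor on both arrays, 3 were at least 1.5-fold higher, beside 1.56% of the 10831 genes above it on both, and 0 were lower, beside 2.33%. With no floor, 5 of all 10 members were at least 1.5-fold higher, the fifth being Cd79a, beside 5.42% of 18193 genes, and 0 were lower, beside 3.81%. At a size of 2-fold, 2 members remained (Vpreb1 and Igll1), beside 0.398% of measured genes upward and 0.572% downward.

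The log2 ratios of dim genes spread more widely (SD 0.30 to 0.38 over genes of mean log2 signal under 8, against 0.23 above it), so the background was also taken by brightness. Vpreb1 and Igll1 had a mean log2 signal between 7 and 8, where 2.07% of 2122 genes passed 1.5-fold upward and 4.01% downward. Blnk lay between 6.5 and 7, where the shares of 996 genes were 3.71% and 5.72%. Rag1, Pax5, Cd79a and Il7r lay between the floor and 6.5, where they were 2.19% and 4.13% of 1645 genes, and Rag1 was the 1 member of these to pass. Dntt lay above 8, where they were 1.19% and 1.39% of 6784 genes. All 4 of the genes that passed did so on 1 measured probe set. Among 53 genes whose brightest probe set was at least 1.5-fold higher and that had a second measured one, the second was higher by any amount in 43 (81.1%) and at least 1.5-fold higher in 19 (35.8%).

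**Figure D2:**
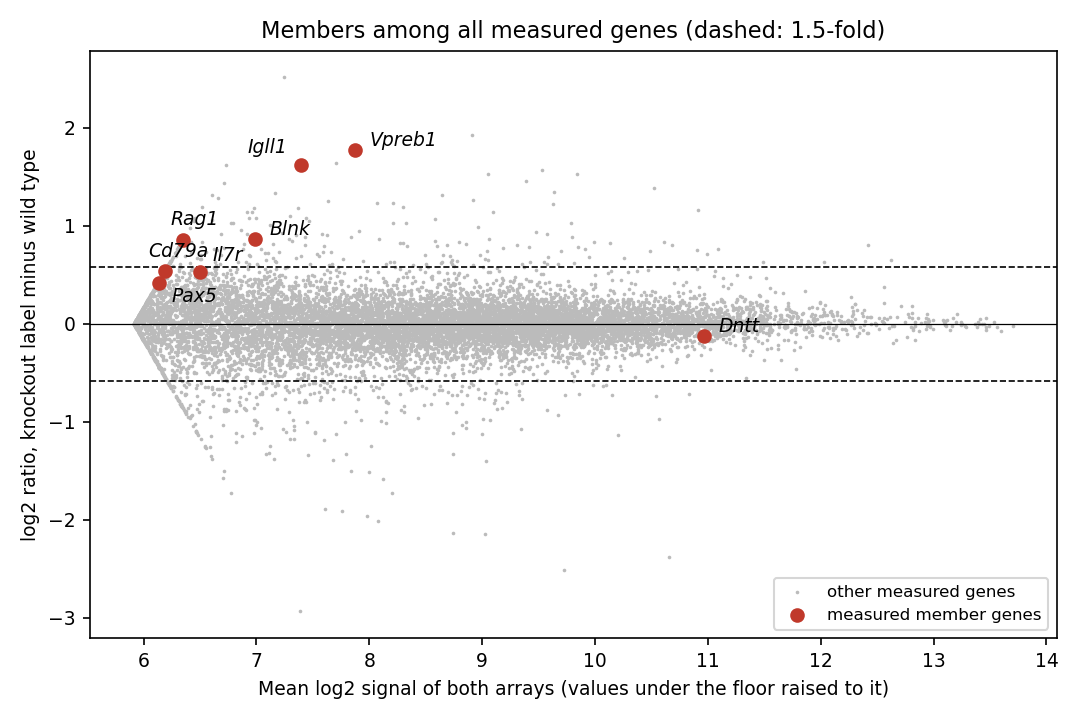
Each point is a measured gene, with its mean log2 signal over both arrays on the x axis and its log2 ratio (knockout label minus wild type) on the y axis. Dashed lines mark 1.5-fold, and the slanted left edge is made of genes under the floor on 1 array. Vpreb1 and Igll1 lie among the highest ratios, Rag1 and Blnk above the upper line, Il7r, Cd79a and Pax5 below it, and Dntt at high signal near 0.

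Of the 10 members, 5 hold the E-box sequence CAGGTG on either strand between 250 bases before and 50 bases after a start: Vpreb1, Igll1, Rag1, Blnk and Cd79a, printed above. The match begins 88 bases before the start in Vpreb1, 8 in Igll1, 135 in Rag1, 160 in Blnk and 154 in Cd79a. All 4 members that passed 1.5-fold hold it. Of the 4 measured members that did not pass, Cd79a (log2 ratio at least 0.54) holds it, and Il7r (0.53), Pax5 (0.42) and Dntt (-0.13) do not. Rag2 and Ebf1, which gave no ratio above the floor, do not hold it either. These counts were looked at after the values were known, and the sequence is common: 20.2% of 32851 promoters of this length hold it. Counted by gene, as for the members, 6098 of 27025 genes hold it in at least 1 promoter. Of 149 genes at least 1.5-fold higher that had a promoter in the table, 26.8% held it, beside 25.2% of 242 genes at least 1.5-fold lower and 21.0% of all 9391. The median log2 ratio of measured genes with the sequence was 0.0041. Tcf3, which encodes the E protein E2A, read 755 against 735 (log2 0.04). The Ikaros core TGGGAA, searched on both strands, was in the promoters of 2 members (Rag1 and Ebf1). It was in 25.6% of all promoters and, counted by gene, in 7651 of 27025 genes. The EBF1 palindrome TCCCNNGGGA was in 0 of the 11 member promoters and in 0.904% of all. Only exact matches were searched, so sites that differ from these sequences were not counted.

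Of the members, 3 pairs are next to each other among protein-coding genes in RefSeq, and neighbours did not always differ alike. Vpreb1 and Igll1 on chromosome 16 were both higher. On chromosome 2, Rag1 was higher, and Rag2 gave no ratio to compare with it because it did not reach the floor. Blnk and Dntt on chromosome 19 went opposite ways, 1.82-fold higher and 0.13 lower on the log2 scale. The 2 nearest measured genes on each side of every member gave 28 genes that are not members, chosen after the values were known. Their median log2 ratio was 0.09. Of these, 1 was at least 1.5-fold higher, Cd177, a neutrophil surface gene near Cd79a (103 against 44.5), and 0 were lower. Beside Vpreb1, Top3b read 743 against 672, and beside Rag1, Traf6 read 308 against 268.

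Of 18 listed genes of the surrogate light chain and of pre-B cell receptor signalling, 14 were named by a probe set and 12 were measured. Of those 12, 0 were at least 1.5-fold higher or lower on their brightest probe sets. A positive ratio was seen in 10, and the median log2 ratio was 0.18. Btk, the kinase that Blnk brings to its substrate, came closest to 1.5-fold (1714 against 1169, log2 0.55). Prkcb (226 against 168, log2 0.43), Vav1 (0.34) and the kinase subunit Pik3cd (0.23) followed, and a further probe set of Pik3cd gave -0.11. Syk was at 0.21 on its brightest probe set, while another read 111.5 against 168 (log2 -0.59), past 1.5-fold lower. Cd79b, the partner of Cd79a in the receptor, read 257 against 233 (log2 0.15).

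Of 14 listed partners of Rag1 and Rag2 in recombination and end joining, 11 were measured. On their brightest probe sets, 0 passed 1.5-fold in either direction. Their median log2 ratio was -0.19, with 9 negative and 2 positive ratios, while 50.4% of all measured genes had a positive one. The positive ones were Prkdc (0.11), the kinase of end joining, and the polymerase gene Poll (0.08), both named after their values were seen. Trp53bp1, which holds broken ends for joining, read 905 against 1206 (log2 -0.41). The ligase cofactor Xrcc4 (141 against 170, log2 -0.27), the Ku subunit Xrcc6 (-0.21) and Nhej1 (-0.21) were the next largest. Atm was at -0.21 on its brightest probe set, while its other one read 210 against 344 (log2 -0.71), past 1.5-fold lower.

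Transcription factors of early lymphoid and B cell fate were mixed. Of 21 listed, 16 were measured, of which 1 passed 1.5-fold upward and 2 downward, with a median log2 ratio of 0.05. Pou2af1, a B cell coactivator of octamer-binding factors, read 130 against 77.3 and was 1.68-fold higher on its single probe set. Irf8, a factor of B cell and myeloid fates, read 512 against 372 (log2 0.46, and 0.54 on its second probe set). Runx1 (414 against 756, log2 -0.87) and Bcl11a (886 against 1362, log2 -0.62) were lower on their brightest probe sets, while other probe sets of Runx1 reached 0.28 and of Bcl11a 0.19. Ikzf3, Spib, Id3, Irf4 and Lef1 were under the floor on both arrays.

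Genes of interleukin-7 receptor signalling had a median log2 ratio of 0.0029, beside 0.0023 for all measured genes. Of 12 listed, 10 were measured and 0 passed 1.5-fold on their brightest probe sets, and Il7r did not pass it either. Over all measured genes, 1.71% passed it upward and 2.63% downward. The largest ratios were those of Cish, a feedback inhibitor and target of Stat5 (235 against 299, log2 -0.35), Jak1 (0.24), Bcl2 (-0.24) and Stat5a (0.17). Jak1, Bcl2 and Stat5a each had a further probe set of the opposite sign. Another Bcl2 probe set read 198 against 298 (log2 -0.59), past 1.5-fold lower.

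Lymphoid-primed progenitor genes, of which 8 of 10 were measured, had a median log2 ratio of 0.04, with 0 at least 1.5-fold higher and 1 lower. Flt3, the receptor that marks lymphoid-primed progenitors, read 1659 against 1452 (log2 0.19), Satb1 was at 0.30 and Notch1 at -0.30. The lower gene was Ighm, the IgM heavy chain that pairs with the surrogate light chain. It read 707 against 3684 on its brightest probe set (log2 -2.38), the opposite direction to Vpreb1 and Igll1, but the ratios of its 8 measured probe sets spread from -2.38 up to -0.04.

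**Figure D3:**
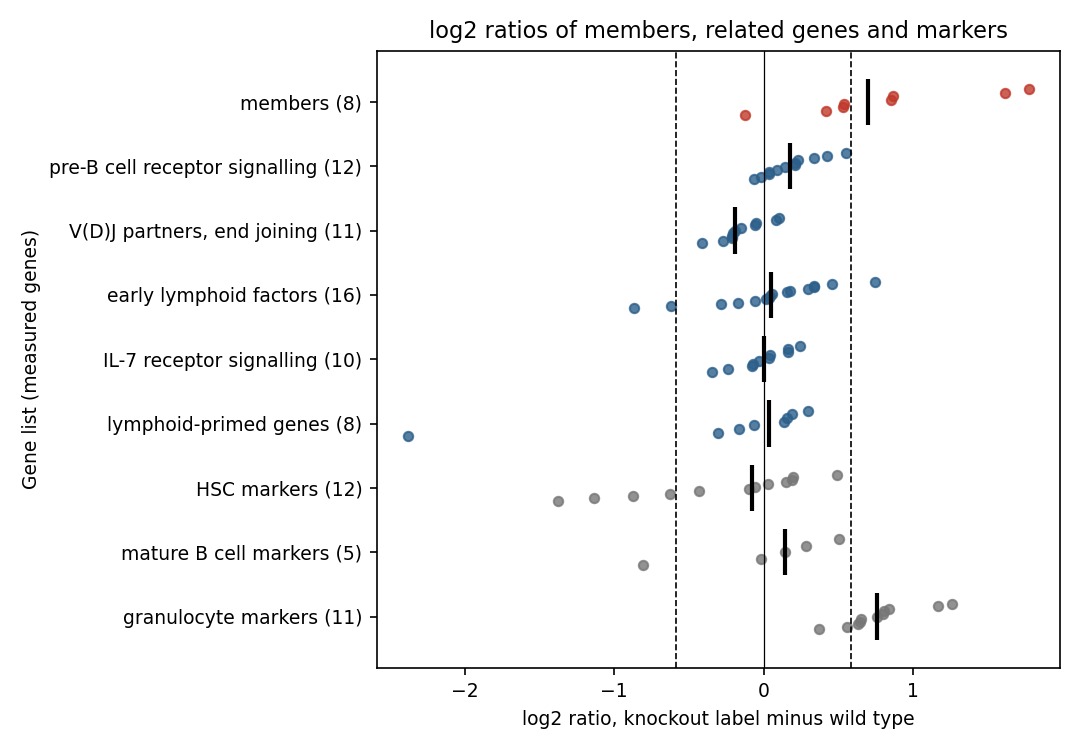
Each point is the log2 ratio (x axis, knockout label minus wild type) of 1 measured gene, by list (y axis, with the number of measured genes), red for the members, blue for related genes and grey for cell markers. Black bars are medians and dashed lines mark 1.5-fold. The members' median of 0.70 is close to that of the granulocyte markers (0.76), while the medians of the related lists lie between -0.19 and 0.18.

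Markers of other cells differed between the same 2 arrays. All 12 of the HSC and progenitor markers analysed here, of 14 listed, were above the floor on both arrays. Kit, the stem cell factor receptor, read 1746 against 1709. On the brightest probe sets, no marker of this list passed 1.5-fold upward. Downward, 4 passed it: Fgd5 (log2 -1.38), Hlf (-1.13), Procr (-0.87) and Mecom (-0.63). Over all measured genes, 1.71% passed it upward and 2.63% downward. Ratios were positive in 5 of the 12, namely Cd48 (0.49), Gata2 (0.20), Flt3 (0.19), Cd34 (0.15) and Kit (0.03). A further Gata2 probe set gave -0.23. The other 7 were negative, the smallest being Slamf1 (-0.10) and Hoxb5 (-0.05). Meis1 was at -0.43 on its brightest probe set, and its others gave -0.74 and 0.40. Summed over their brightest probe sets, the 12 markers read 15557 against 16410. Of 11 granulocyte markers, 9 passed 1.5-fold upward and 0 downward, and the list summed to 36258 against 22717. They were led by Lcn2 (log2 1.26), Ms4a3 (1.17), Ngp (0.84) and Ctsg (0.80). Monocyte and macrophage markers summed to 4059 against 3057. F13a1 read 1273 against 428 (log2 1.57), at least 1.5-fold higher, and Itgam (0.46), Csf1r (0.45) and Cd68 (0.26) were below that size. Further probe sets of Csf1r gave 0.69 and 0.76, past it. The other measured markers of this list, Lyz2 (1597 against 1704, log2 -0.09) and Adgre1 (-0.10), had negative ratios. Of 4 measured erythroid markers, Car1 was lower (log2 -1.96), Klf1 (-0.17), Hba-a2 (-0.12) and Epor (-0.07) were within 1.5-fold, and the list summed to 464 against 871. In bulk RNA, fewer cells of a type and less RNA per cell cannot be told apart, and the part of these differences in the members' values was not tested.

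Markers of mature lymphoid cells were low or showed no common difference. Of 8 mature B cell markers analysed here, Ms4a1 (CD20), Fcer2a and Fcmr did not reach the floor on either array, and the list summed to 1307 against 1402. Cd22 (log2 0.50), Cd37 (0.28) and Cd79b (0.15) had positive ratios and Cd74 was lower (-0.81). The second Cd37 probe set went the other way (286 against 397, log2 -0.47). The plasma cell markers summed to 4042 against 4650, with Sdc1 lower (log2 -0.9986), Jchain at -0.47 and Xbp1 at 0.12. Of 9 T cell markers, 7 were under the floor on both arrays, Cd3d, Cd3e, Cd3g and Cd4 among them, and the list summed to 512 against 480. The remaining markers, Cd8a (log2 0.22) and Zap70 (0.15), were within 1.5-fold. Cd8a was measured on an _x_at probe set only, and its others were under the floor on both arrays. Of 8 NK and innate lymphoid markers, 4 were measured and the list summed to 2782 against 2490. Gata3 was lower (log2 -0.62), Zbtb16 was at 0.47, Nkg7 at 0.20 and Rora at 0.05. Further probe sets gave 0.08 for Zbtb16, and -0.37 and -0.09 for Rora. Plasmacytoid dendritic cells also transcribe some of the member genes, and of their 8 markers Siglech, Ly6d and Spib were under the floor on both arrays. That list summed to 2916 against 3006, with Irf8 at 0.46, Bst2 at -0.45, Klk1 at 0.12 and Ccr9 at least 1.05-fold lower.

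The arrays also differed in sex-linked transcripts, which were looked at after the values were known. Y-linked Eif2s3y read 316 against 645 and Kdm5d 179 against 290, while the brightest probe set of Xist, which silences an X chromosome, read 5224 against 3365. The sex of the mice was not given in the sources used here. Genotype and the mix of mice on each array cannot be told apart.

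The size of the members' differences depended more on how low signals were treated than on the normalization between the arrays. Under quantile normalization, median centring and loess, Vpreb1 stayed between log2 1.78 and 1.82 and the same 4 members were at least 1.5-fold higher. With the floor raised to percentile 75 of all probe sets, 3 members were measured, Vpreb1 was higher by at least 0.86 on the log2 scale, Igll1 by at least 0.31, and Dntt stayed at -0.13. Without the _x_at and _s_at probe sets there was no Igll1 value, and with the median over the probe sets of a gene Igll1 was at 0.35, since its second probe set then counts.

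**Figure D4:**
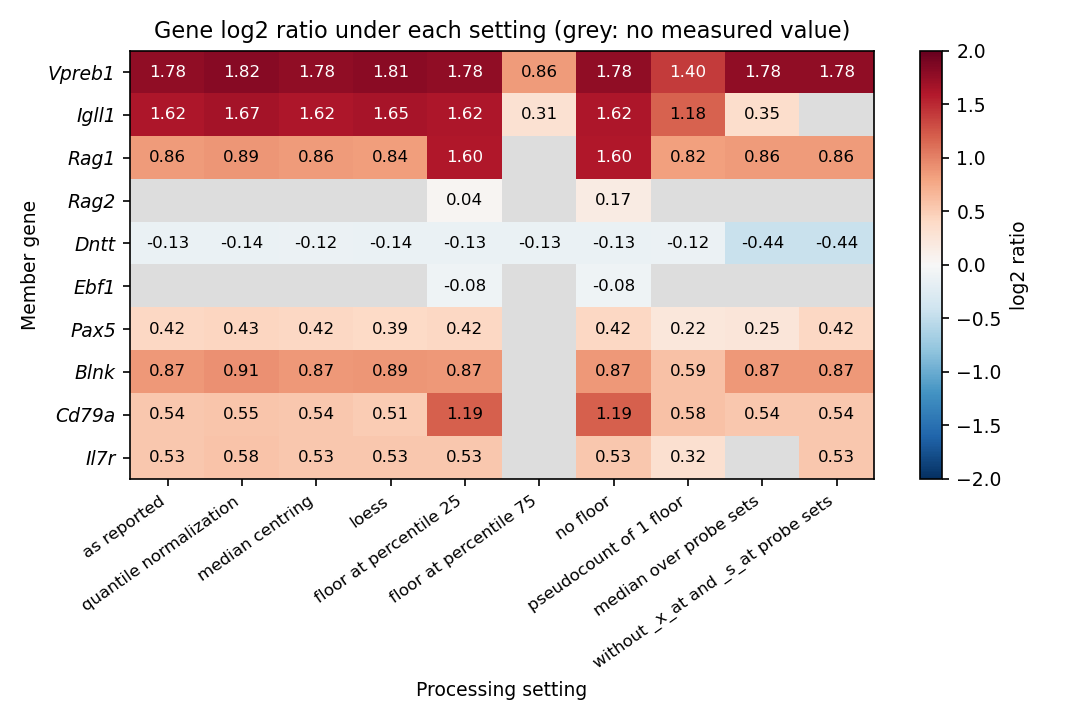
Log2 ratio (knockout label minus wild type, colour and printed value) of each member gene (y axis) as reported and under 9 other processing settings (x axis). Grey cells had no measured value. Vpreb1 ranges from 0.86 to 1.82, Rag1 from 0.82 to 1.60, and Dntt is negative in every column, from -0.44 to -0.12.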

How the data were processed

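Total RNA of mouse HSC was hybridized to 2 Affymetrix arrays, 1 per genotype. The deposited values are linear signal intensities from MAS5, per the submitters' processing notes. Its version, scaling target and detection calls were not given in the sources used here. MAS5 treats every array alone and subtracts mismatch from perfect-match probes, so values of dim probe sets are noisy. The array medians were nearly equal but lie at the floor, so they do not show the scale of brighter genes. Over the 10831 genes above the floor on both arrays, the median log2 ratio was -0.00083. The deposited signals were used as they were, on the log2 scale.

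Of 45037 probe sets, 34945 named 1 gene and were used, 932 named several and 9160 named none. Symbols were updated to RefSeq (GRCm38.p6) through the Entrez identifier. The brightest probe set on average stood for a gene. The promoter table held 11 promoters for the 10 members. The steps were tested on simulated data. Python 3.11.15, numpy 2.4.6, pandas 2.3.3, statsmodels 0.14.6 (loess, span 0.3) and matplotlib 3.10.9 were used. In each list the 4 measured genes with the largest ratio were named, with all members, Sirt6, Ighm, Vpreb2 and Vpreb3, and others are marked or stand beside a member as partner, factor or unmeasured marker. Atm, Syk and Meis1 were named for a further probe set past 1.5-fold. Lyz2, Adgre1 and the remaining HSC and progenitor markers were named to complete their lists. The members and lists were chosen with earlier results of these data known. No test was possible with 1 array per group, and the number of arrays limits the precision.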

Additional observations from a re-analysis of the deposited data

How the results depend on the processing

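The count of members at least 1.5-fold higher was 4. It was 1 with the floor at percentile 75, where the median log2 ratio of the 3 measured members was 0.31, and 2 at a size of 2-fold. Under the other alternatives the count lay between 3 and 5 and the median between 0.54 and 0.73. These were quantile normalization, median centring, loess, the floor at percentile 25, a pseudocount of 1 floor, no floor, a gene's median probe set value, leaving out _x_at and _s_at probe sets, and, added after seeing the data, genes above the floor on both arrays. The count of members at least 1.5-fold lower was 0 under every alternative run. No member probe set past 1.5-fold changed sign under an alternative. A floor, a pseudocount or leaving out probe sets cannot change a sign. Only quantile normalization, median centring and loess could have done so. Signals near the floor limit Rag1, Cd79a, Pax5 and Il7r, and Rag2 and Ebf1 gave no ratio. No paired analysis was possible because each group has 1 array. No replicate could be left out for the same reason.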
